A study of Bos indicus x Bos taurus with 78 samples.

Results

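The myosin-intron miRNAs miR-499, miR-208b and miR-208a (rows bta-miR-499, bta-miR-208b and bta-miR-208a) were followed in biopsies of Longissimus lumborum, a loin muscle, from 78 male Bos indicus x Bos taurus cattle. They were taken by name and are 3 of the 1030 miRNA rows of the count table. The dark-cutting group held 25 steers, with 8 at degree 1/4, 9 at 1/3, 3 at 1/2, 4 at 2/3 and 1 at 3/4, and the normal group held 53. Dark-cutting is a beef quality defect tied to meat of high pH. The labels give no age, treatment or batch and do not say how a degree was scored. Each biopsy carries its own title number and is taken here as 1 steer, so the p-values measure the spread between these biopsies.

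Each of these miRNAs is cut from an intron of a myosin heavy chain gene and is made together with its host transcript. In mammals miR-208a lies in MYH6, the alpha myosin of the heart, miR-208b in MYH7, the slow myosin of type I fibres and of the heart, and miR-499 in MYH7B. In mouse, miR-208b and miR-499 act together to favour the slow fibre programme by repressing genes that hold slow genes down, Sox6 among them. miR-208a and miR-208b share their seed, the bases by which a miRNA finds its targets. Sequences and genome positions are not used here, and whether reads of one row could belong to another was not checked.

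Depth was similar in both phenotypes, with total counts of 2687185 to 4370459 (median 3187710) in dark-cutting and 1427817 to 4535675 (median 3211620) in normal steers. Values are CPM, counts per 1000000 counts of the library, scaled by TMM, which sets libraries to a common level over most miRNAs. That matters here because miR-1 alone held between 72.3% and 88.6% of the counts of each library. The tissue label was borne out by muscle miRNAs, with means over all steers of 18755 CPM for miR-133a and 3231 CPM for miR-206, which is known from skeletal muscle. A biopsy mixes cell types, so fewer cells of a type and less RNA per cell cannot be told apart.

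The 3 miRNAs stood at levels whose ranges over steers did not overlap. miR-499 was the most abundant, with 2332 CPM in the lowest steer, a median of 5528 CPM and 8733 CPM in the highest (n = 78). It made up 0.538% ± 0.148 (SD, n = 78) of all counts and ranked number 8 of 1030 by count. miR-208b had 19.7 CPM in the lowest steer, a median of 66.5 CPM and 222.7 CPM in the highest, at 0.00759% ± 0.00408 (SD) of counts and rank 96. miR-208a was at the edge of detection, from 0 to 2.21 CPM with a median of 0.645 CPM, and ranked 326. Within a steer the count of miR-499 exceeded that of miR-208b by a median of 72.8-fold, between 36.8-fold and 240.1-fold. These are ratios of reads, and a library kit can recover different miRNAs unequally.

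The spread between steers was wider for miR-208b than for miR-499. In CPM, the highest steer had 11.3-fold the miR-208b of the lowest, and for miR-499 this was 3.75-fold. The SD of log2 CPM over all steers was 0.73 for miR-208b, number 20 of the 252 tested miRNAs, and 0.41 for miR-499, number 133, where the median miRNA had 0.44. Each was above most miRNAs of like abundance: all 20 of the nearest in level had a lower SD than miR-208b (0.19 to 0.70), and 16 of 17 a lower SD than miR-499. Counting error alone would give an SD of about 0.11 for miR-208b and 0.01 for miR-499 on this scale. The highest steer in both was replicate 36 of the normal group, with 222.7 CPM of miR-208b and 8733 CPM of miR-499.

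**Figure D1:**
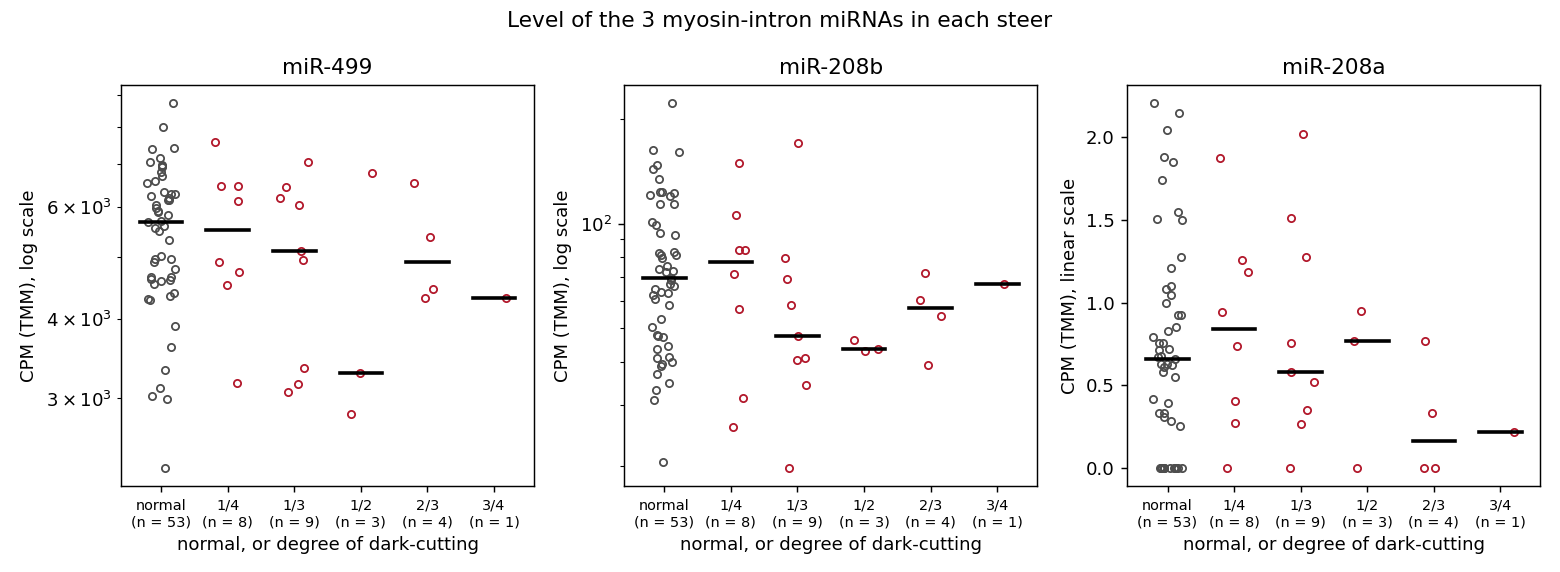
Level of miR-499, miR-208b and miR-208a in each steer, in CPM scaled by TMM, on a log axis for the first pair and a linear axis for miR-208a. Points are steers, bars are group medians, and normal steers stand left of the degrees. The groups overlap for each miRNA, and the 3 steers of degree 1/2 lie close together at 43.4 CPM (median) of miR-208b.

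miR-208b, the slow-myosin miRNA, was lower on average in dark-cutting than in normal steers, but the difference did not pass the test. In dark-cutting steers it had 19.7 CPM in the lowest, a median of 56.5 CPM and 171.4 CPM in the highest, against 20.5, 69.6 and 222.7 CPM in normal steers. The ranges overlapped almost wholly, with 8 of 25 dark-cutting values higher than the median of normal steers. Mean log2 CPM came to 5.83 ± 0.72 (SD, n = 25) for dark-cutting and 6.16 ± 0.72 (SD, n = 53) in normal steers. The fitted log2 fold change was -0.33 (95% interval -0.66 to 0.01, p = 0.0597, adjusted p = 0.416 by edgeR's quasi-likelihood test), which is 0.798-fold. With steers left out singly it lay between -0.43, without replicate 6 of degree 1/3 (the steer at 171.4 CPM), and -0.28, without replicate 36 of the normal group. Adjusted p was then 0.309 and 0.477 by edgeR.

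For miR-499 the estimate was smaller and did not pass either. Dark-cutting steers had 2839 CPM in the lowest, a median of 4945 CPM and 7575 CPM in the highest, against 2332, 5685 and 8733 CPM in normal steers. Dark-cutting values lay inside the normal range, with 10 of 25 above the normal median. The log2 fold change was -0.11 (95% interval -0.30 to 0.07, p = 0.228, adjusted p = 0.669 by edgeR), so that the interval excludes a loss of more than 0.30 on the log2 scale. Neither tested member passed, as for all miRNAs of this comparison (0% of 252). DESeq2 and limma-voom called none either. At an unadjusted p under 0.05 stood 9.13% of the 252 and neither member. The authors' deposited table lists log2 fold changes of -0.32 for miR-208b and -0.11 for miR-499, with adjusted p = 0.605 and 0.905, and -0.10 for miR-208a with adjusted p = 0.992. That table does not name its contrast and lists 542 miRNAs, against 252 tested here, so its adjusted p-values are not on the same footing.

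A ratio within a library does not depend on scaling, so miR-208b was also set against miR-499 of the same steer. The log2 ratio averaged -6.43 ± 0.62 (SD, n = 25) over dark-cutting and -6.23 ± 0.67 (SD, n = 53) over normal steers. Of the 25 dark-cutting steers, 8 exceeded the median of normal steers. The difference of -0.20 ± 0.15 (SE) did not pass a two-sided permutation test (p = 0.199, 100000 resamples). By degree the mean log2 ratio was -6.32 at 1/4, -6.52 at 1/3, -6.49 at 1/2, -6.52 at 2/3 and -6.00 in the steer of 3/4. Among steers with title numbers below 600 the ratio stood at -6.54 ± 0.45 in 8 dark-cutting and -6.62 ± 0.68 in 18 normal steers, with permutation p = 0.768. Among those numbered 600 or above it stood at -6.38 ± 0.69 in 17 dark-cutting and -6.03 ± 0.58 in 35 normal steers, a difference of -0.35 ± 0.19 (SE, permutation p = 0.0563). Whether the ranges differ in this was not tested for the ratio. What the numbers stand for is not labelled.

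**Figure D2:**
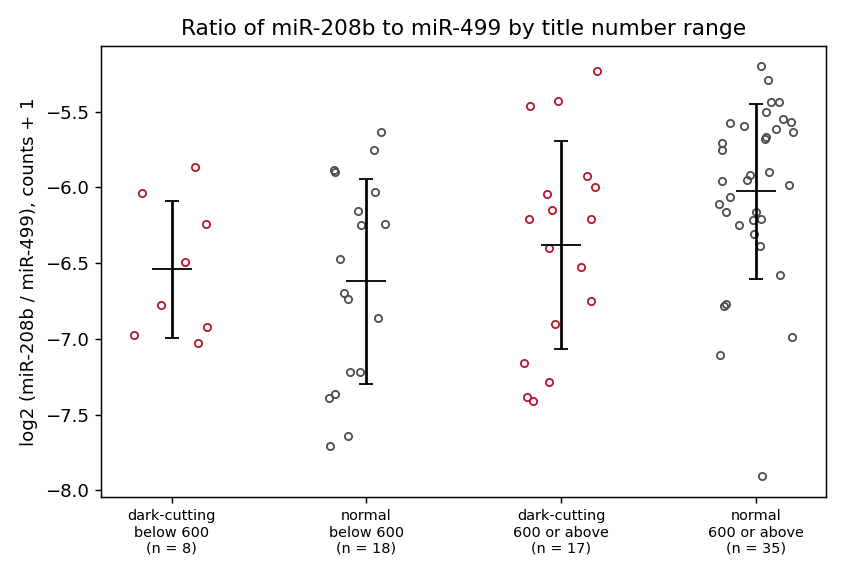
Log2 ratio of miR-208b to miR-499 counts in each steer (points) by phenotype and title number range, with the mean and SD in black. Means were -6.54 and -6.62 below 600 and -6.38 and -6.03 at 600 or above, in dark-cutting and in normal steers of each range.

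By number range, the log2 fold change of miR-208b between dark-cutting and normal steers was -0.31 ± 0.30 (SE) below 600 and -0.34 ± 0.21 at 600 or above. The values for miR-499 were -0.29 ± 0.16 and -0.02 ± 0.11. The difference between the ranges was 0.03 (95% interval -0.69 to 0.74) for miR-208b and -0.27 (-0.66 to 0.12) for miR-499, and neither passed edgeR's test (adjusted p = 0.987 and 0.892), nor did any miRNA in this comparison or within a range (0% of 252 in each). These intervals are wide, so a like response in both ranges is not shown. The contrast of ranges within a phenotype was added after values were seen. In normal steers, miR-499 averaged 6130 ± 1020 CPM (SD, n = 18) at title numbers below 600 and 5188 ± 1421 CPM (SD, n = 35) at 600 or above. miR-208b went the other way, with 68.5 ± 34.4 CPM and 85.7 ± 43.4 CPM. The log2 differences (below 600 minus 600 or above) were 0.24 ± 0.11 (SE, p = 0.0286, adjusted p = 0.3204 by edgeR) for miR-499 and -0.32 ± 0.20 (adjusted p = 0.524) for miR-208b. Neither passed, and 13.1% of 252 miRNAs had an unadjusted p under 0.05, miR-499 among them (adjusted, 0% in either phenotype). In dark-cutting steers the differences were -0.03 ± 0.16 for miR-499 and -0.29 ± 0.30 for miR-208b.

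miR-208b had negative estimates against normal steers at each tested degree, and none passed. Steers of degree 1/4 had between 25.9 and 150.1 CPM with a median of 77.6 CPM, and those of degree 1/3 between 19.7 and 171.4 CPM with a median of 47.3 CPM. At degree 1/2 the steers had 43.02, 46.2 and 43.4 CPM, all below the normal median of 69.6 CPM. At degree 2/3 they had 39.2, 72.2, 54.2 and 60.04 CPM, with 1 of 4 above that median. The single steer of degree 3/4 had 67.2 CPM. All of these lie inside the normal range of 20.5 to 222.7 CPM, except the lowest steer of degree 1/3. Fitted log2 fold changes were -0.08 ± 0.27 (SE) for 1/4, -0.35 ± 0.26 for 1/3, -0.82 ± 0.46 for 1/2 and -0.59 ± 0.39 for 2/3. None passed (adjusted p = 0.9996, 0.770, 0.994 and 0.988 by edgeR). Total count scaling moved the values of degrees 1/4 and 1/3 to -0.13 and -0.19, and limma-voom gave -0.12 for 1/4. That of degree 1/2 lay between -0.85 and -0.65 over 7 alternatives, the latter with limma-voom. Leaving out replicate 1 of degree 2/3 moved that of 2/3 to -0.36. Passing overall were 0%, 0%, 0% and 0.368% of 272 miRNAs. The single steer of degree 3/4 enters the slopes and the dark-cutting group but no contrast of degrees. The degrees share their normal steers, so their signs are not independent of each other.

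For miR-499 the medians were 5521 CPM at degree 1/4 and 5120 CPM at degree 1/3, with ranges of 3172 to 7575 CPM and 3067 to 7047 CPM. The 3 steers of degree 1/2 had 2839, 3292 and 6795 CPM, so 1 steer lay well above the other two. Those of degree 2/3 had 4319, 5376, 6537 and 4462 CPM, and the steer of degree 3/4 had 4312 CPM. The normal median was 5685 CPM. Log2 fold changes against normal were -0.0043 ± 0.15 (SE), -0.11 ± 0.14, -0.31 ± 0.24 and -0.17 ± 0.21 for degrees 1/4, 1/3, 1/2 and 2/3, with adjusted p of 0.864 or more by edgeR. With total count scaling the value for degree 1/3 turned to 0.04. That for degree 1/2 moved with each of its steers: it was -0.80 without replicate 3 (adjusted p = 0.850), -0.18 without replicate 2 and -0.08 without replicate 1, and it was -0.17 with total count scaling. That for degree 2/3 was -0.02 without its replicate 1, and -0.09 with total count scaling or without replicate 2 of degree 1/2. With no low-count filter it was -0.08, and with DESeq2 or its size factors -0.11.

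In order of mean log2 CPM of miR-208b, normal steers (6.16) were followed by degree 3/4 (6.08, 1 steer), 1/4 (6.06), 2/3 (5.80), 1/3 (5.73) and 1/2 (5.49). No neighbours in this order among the tested degrees differed beyond their spread, and the fitted difference of 2/3 minus 1/3 was -0.24 ± 0.43 (SE), opposite in sign to these means. In the 6 contrasts between degrees, log2 differences of miR-208b lay between -0.74 (1/2 minus 1/4, 95% interval -1.74 to 0.25) and 0.23 (2/3 minus 1/2). Those of miR-499 lay between -0.31 and 0.14. No contrast passed for either miRNA, with adjusted p of 0.986 or more by edgeR, and 0% of 272 miRNAs passed in any of them.

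Over all 78 steers, with normal steers taken as degree 0, the slope of miR-208b was -0.89 ± 0.39 (SE) log2 units per unit of degree (95% interval -1.67 to -0.11), which did not pass over all miRNAs (p = 0.0253, adjusted p = 0.345 by edgeR). For miR-499 the slope was -0.34 ± 0.21 (p = 0.111, adjusted p = 0.457). Of the 272 miRNAs tested, 0.368% passed, and 11% had an unadjusted p under 0.05, miR-208b among them. With total count scaling the slopes were -0.71 and -0.10, while the median of all 272 moved from -0.04 to 0.19. Normal steers make up 53 of the 78 points of this slope. Within the 25 dark-cutting steers it was -1.06 ± 0.79 for miR-208b (95% interval -2.67 to 0.54) and -0.54 ± 0.47 for miR-499, both with adjusted p = 0.998, and 0% of 251 miRNAs passed. For miR-208b this slope was -0.59 with limma-voom. For miR-499 it was -0.35 with total count scaling and also without replicate 1 of degree 1/2.

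**Figure D3:**
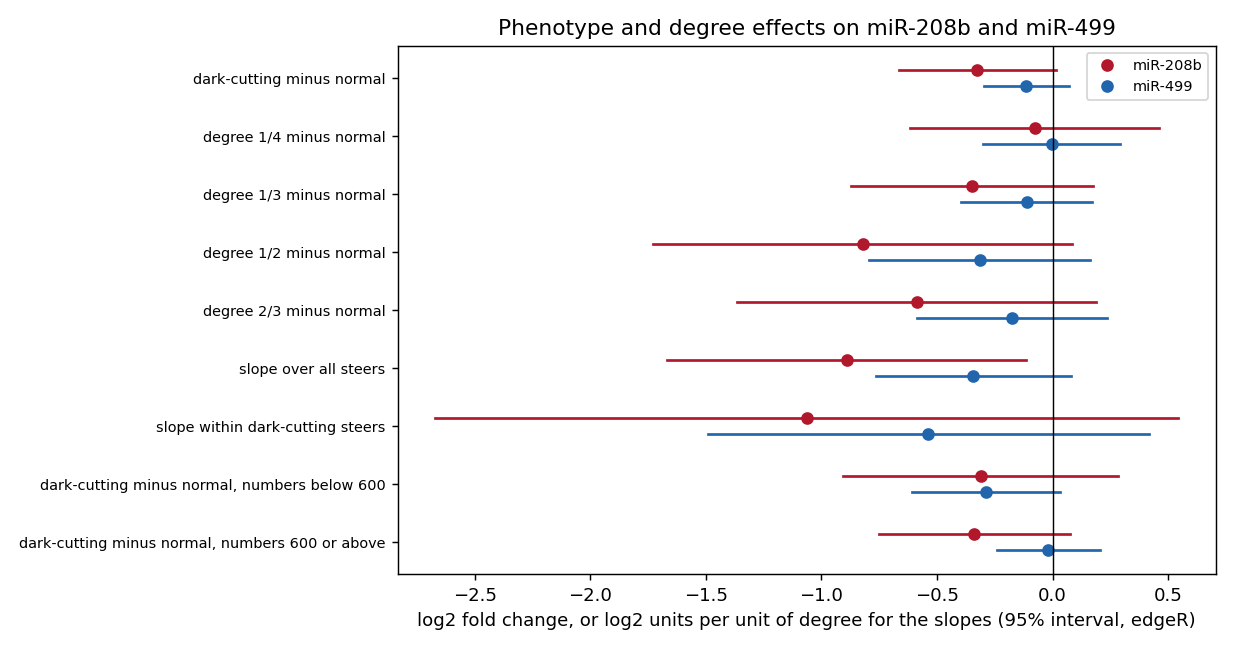
Fitted log2 fold changes of miR-208b and miR-499 with 95% intervals, from edgeR, for dark-cutting steers (all, and by title number range) and each degree against normal steers, and slopes in log2 units per unit of degree. All points lie below 0, though those of miR-499 at degrees 1/4 and 1/3 turn to 0.0167 and 0.0426 with total count scaling, and the interval of 1 of the 18, the slope of miR-208b over all steers at -0.89, leaves out 0 before adjustment.

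miR-208a, the miRNA of the cardiac myosin intron, had 181 counts in all 78 steers together, so it did not pass the filter on low counts. A count was found in 20 of 25 dark-cutting and 40 of 53 normal steers, or 80.0% and 75.5% (two-sided Fisher's exact test p = 0.778). In the 18 steers at 0, a count of 0 allows a level of up to 3 counts, or 0.775 to 2.10 CPM at their depths. Pooled over steers it stood at 0.723 CPM of raw counts (95% Poisson interval 0.552 to 0.931) in dark-cutting and 0.715 (0.593 to 0.854) in normal steers. These intervals cover counting error only. The variance of raw counts over the 78 steers was 1.76 times their mean, where counting error at equal depth gives a variance equal to the mean. By degree the pooled level was 0.816 CPM at 1/4, 0.916 at 1/3, 0.711 at 1/2, 0.238 at 2/3 (3 counts in 4 steers) and 0.255 at 3/4 (1 count). The steers of degree 1/2 had 5, 0 and 3 counts and those of degree 2/3 had 0, 2, 0 and 1. With no filter on low counts its log2 fold change between dark-cutting and normal steers was -0.09 (95% interval -0.74 to 0.56, adjusted p = 0.927 by edgeR), which did not pass. Against normal steers it was 0.18 ± 0.50 (SE) at 1/4, 0.17 ± 0.47 at 1/3, -0.26 ± 0.78 at 1/2 and -1.40 ± 0.88 at 2/3. The slope was -0.81 ± 0.79 over all steers and -3.59 ± 1.82 within dark-cutting steers (p = 0.0544, adjusted p = 0.7675 by edgeR). None of these passed, and they rest on few counts.

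Counts of miR-208a were 1.06% of those of miR-208b in dark-cutting and 0.886% in normal steers. Their log2 CPM had r = 0.25 (permutation p = 0.0284), with rho = 0.23 (p = 0.0396), and neither held after adjustment over 27 relations (adjusted p = 0.0912 and 0.134). Of the relations of miR-208a, that with miR-378 alone passed, with r = -0.31 (permutation p = 0.00459, adjusted p = 0.0207) but rho = -0.26 (adjusted p = 0.0891), and adjusted p = 0.0649 for r with total count scaling. Both are descriptions of sparse counts.

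miR-208b and miR-499 rose and fell together across steers. Pearson's r of their log2 CPM was 0.46 (permutation p = 3e-05, adjusted p = 0.000405 over 27 relations) and Spearman's rho 0.42 (p = 0.00018, adjusted p = 0.00122, n = 78). Without the 2 steers farthest from the median of miR-499 r was 0.43 (permutation p = 0.0001). Within dark-cutting steers r was 0.52 (permutation p = 0.00703, n = 25) and within normal steers 0.40 (p = 0.00273, n = 53). By title number it was 0.45 below 600 (permutation p = 0.0215, n = 26) and 0.54 at 600 or above (p = 3e-05, n = 52). Scaling by total count alone gave 0.57. That scaling also raised the median r over all 251 other tested miRNAs, from -0.04 to 0.19 for miR-208b and from 0.0013 to 0.17 for miR-499. Values of a steer come from 1 library, so they share its depth, its RNA quality and its scaling factor, whose part was not tested.

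**Figure D4:**
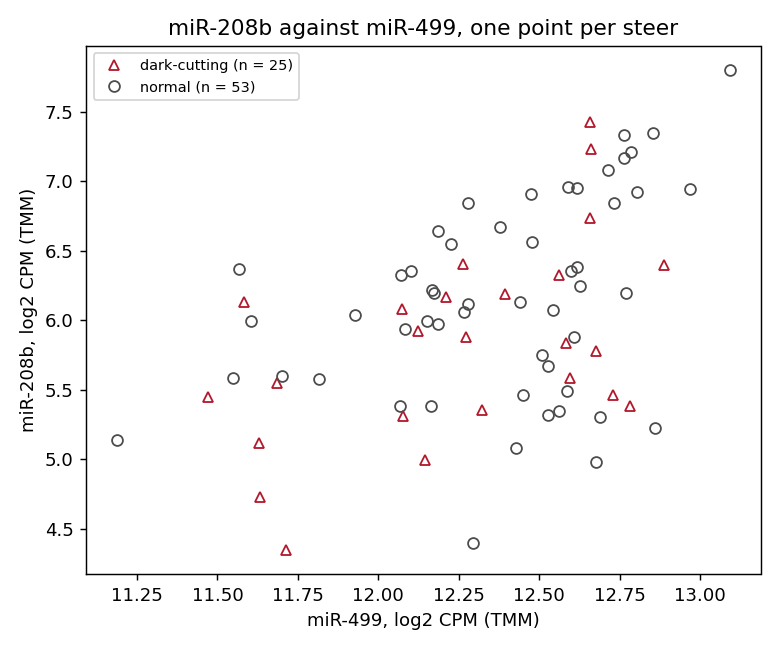
Log2 CPM of miR-208b against that of miR-499, 1 point per steer, with dark-cutting steers as triangles and normal steers as circles. The points form 1 cloud that rises to the right (r = 0.46 over 78 steers), and the phenotypes are not separate.

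Of 6 other miRNAs of muscle, miR-133a, which is processed with miR-1 from shared transcripts, was the one that rose with miR-208b, with r = 0.45 (permutation p = 6e-05, adjusted p = 0.00054, rho = 0.43), 0.52 within dark-cutting and 0.42 within normal steers. By title number it was 0.42 below 600 and 0.49 at 600 or above. Without the 2 steers farthest from its median r was 0.38. For miR-499 the value with miR-133a was 0.06 (permutation p = 0.603), and 0.27 with total count scaling (adjusted p = 0.0443). miR-378, which lies in an intron of PPARGC1B, a gene of oxidative metabolism, went against miR-208b with r = -0.66 (permutation p = 1e-05, the smallest that 100000 resamples can give, adjusted p = 0.00027, rho = -0.71). It did so within dark-cutting (r = -0.70) and within normal steers (r = -0.62), and at title numbers below 600 (r = -0.67) and 600 or above (r = -0.63). With total count scaling, however, this relation was -0.15 (adjusted p = 0.283). For miR-499 and miR-378 r was -0.57 within dark-cutting and 0.04 within normal steers (permutation p = 0.00288 and 0.788), a difference that was not tested, and -0.19 over all. miR-486, abundant in muscle and red cells, had r = -0.43 with miR-208b (permutation p = 0.00018, adjusted p = 0.00122, rho = -0.49), but -0.24 in steers numbered 600 or above (permutation p = 0.0806), against -0.80 below 600, and -0.20 with total count scaling.

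The most abundant muscle miRNA, miR-1, had r = 0.33 with miR-499 (permutation p = 0.0034, adjusted p = 0.0184, rho = 0.27, adjusted p = 0.0698), and this turned to -0.41 with total count scaling. Within dark-cutting steers r was 0.45 (permutation p = 0.0236) and within normal steers 0.25 (p = 0.0743). By title number it was 0.37 below 600 and 0.33 at 600 or above (permutation p = 0.062 and 0.0181). Its r with miR-208b was -0.09 (permutation p = 0.452) and -0.55 with total count scaling. With the share of miR-1, miR-208b had r = -0.27 (permutation p = 0.0151, adjusted p = 0.0584) and rho = -0.36 (adjusted p = 0.00664). Here r was -0.04 within dark-cutting and -0.38 within normal steers (permutation p = 0.847 and 0.0047). It was -0.28 with miR-1 counts left out (adjusted p = 0.0448) and -0.56 with total count scaling (adjusted p = 6.75e-05). Under total count scaling each miRNA is a share of counts of which miR-1 holds most. A negative r with miR-1 or its share is then in part built in. The values of -0.41, -0.55 and -0.56 therefore cannot show a relation by themselves. TMM factors ran from 0.718 to 1.91 and followed the share of miR-1 closely (r = -0.90, n = 78, as a description). With miR-133b and miR-206, of a shared muscle transcript, neither member had an adjusted p under 0.05, the values of r lying between -0.11 and 0.19. With total count scaling they were 0.35 and 0.37 for miR-208b (adjusted p = 0.0054 and 0.00378) and 0.17 and 0.35 for miR-499 (adjusted p = 0.233 and 0.00579). Total counts had r = 0.11 with miR-208b and 0.12 with miR-499 (permutation p = 0.326 and 0.281). With the sparse miR-208a their r was 0.24 (permutation p = 0.0304, adjusted p = 0.0912), and the part of depth in its relations was not tested.

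**Figure D5:**
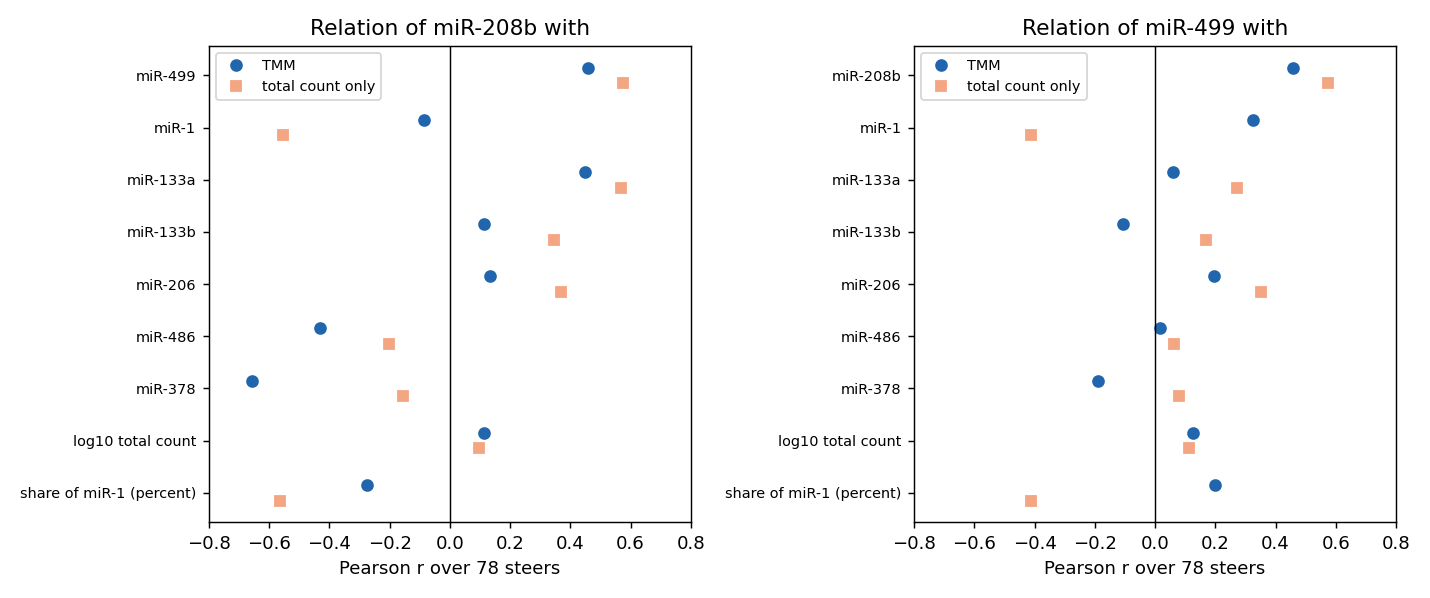
Pearson's r of log2 CPM of miR-208b (left) and miR-499 (right) with other muscle miRNAs, with total count and with the share of miR-1, over 78 steers, under TMM (circles) and total count scaling (squares). The relation between the 2 members is positive under both (0.46 and 0.57), while those with miR-1 and miR-378 move with the scaling. Total count scaling also raised the median r over all 251 other tested miRNAs, to 0.19 for miR-208b and 0.17 for miR-499.

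None of the 6 other muscle miRNAs passed edgeR's test between dark-cutting and normal steers. Of these, 4 had a log2 fold change above 0 (median 0.07), where 46.03% of all 252 tested did (median -0.01). Examples are miR-206 at 0.16 ± 0.06 (SE, adjusted p = 0.277), miR-378 at 0.09 ± 0.06 and miR-1 at -0.13 ± 0.08. Total count scaling moved the median of all 252 from -0.01 to 0.10 and gave 5 of 6 above 0, with -0.27 for miR-208b and -0.02 for miR-499. In the slope over all steers 4 of 6 were above 0 (median 0.11), where 44.5% of 272 were, and none passed. Of 4 white blood cell miRNAs all had log2 fold changes below 0 (median -0.32), as had both of red blood cells (median -0.69), both of endothelium (median -0.08) and all 3 of fibroblasts (median -0.10), and none passed. For smooth muscle, 1 of 2 was below 0. No listed miRNA was at 0. Summed over its list, white blood cells had 72.4 to 215 CPM (median 119.4) in dark-cutting and 78.6 to 334.5 CPM (median 139) in normal steers. Red blood cells had 68.6 to 232.7 CPM (median 132) in dark-cutting and 55.6 to 2795 CPM (median 119.4) in normal steers. These summed medians went the other way from the fold changes of the red blood cell miRNAs. By title number, the median log2 fold change of red blood cell miRNAs was -0.04 below 600 and -0.93 at 600 or above. The part of blood and other cells in the values of miR-208b and miR-499 was not tested.

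Among all 251 other tested miRNAs, those whose log2 CPM most resembled that of miR-208b over the 78 steers were miR-374a (r = 0.83), miR-16a (0.81), miR-6119-5p (0.78), miR-16b (0.72), miR-32 (0.71) and miR-2285bf (0.71). Each lay between 0.73 and 0.86 with total count scaling, and the median miRNA was at -0.04 with TMM and 0.19 with total count scaling. miR-16a and miR-16b are near-identical and can share reads. The least alike were miR-320a (-0.70), miR-2284a (-0.68) and miR-378 (-0.66), of which miR-2284a alone stayed as low with total count scaling (-0.63, against -0.21 and -0.15). But miR-2284a was sparse, with a mean of 8.81 counts per steer, against 372.6 for miR-320a and 11253 for miR-378. miR-499 was number 29 in this order.

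For miR-499 the most alike were miR-30e-5p (r = 0.65) and miR-126-3p, a miRNA of endothelium (0.52), and then miR-208b itself, number 3 of 251 (0.46). After these came miR-2285f (0.38), miR-1434-5p (0.37) and miR-374a (0.36). The lowest were miR-103 (-0.43), miR-23a (-0.37) and miR-154c (-0.36), which stood at 0.12, 0.19 and -0.07 with total count scaling. Both lists are given as a description over shared libraries, and the base composition of the miRNAs was not examined.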

How the data were processed

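Libraries of small RNA from 78 steers were made with the NEXTflex kit named in the labels. FastQC, Trimmomatic 0.32 and DESeq2 1.34.0 appear in the submitters' processing notes. Aligner, counter, miRNA reference, build and any collapsing of repeated reads: not given in the sources used here. Per miRNA, the authors' matrix holds read counts as deposited, not normalized. The authors' deposited DESeq2 table gives a mean normalized signal, a log2 fold change with its SE, a Wald score and a p-value with an adjusted p-value. Its header names no contrast.

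All matrix columns matched 1 steer's title, and no 2 libraries agreed within sampling noise. Counts were tested over all miRNAs with edgeR 4.0.16 in R 4.3.3 (TMM, robust quasi-likelihood F test, Benjamini-Hochberg, threshold 0.05). For dark-cutting against normal, filterByExpr with a minimum count of 10 left 252 miRNAs. Degrees and trends needed the equivalent of 10 counts in 8 libraries and 15 in all, which left 272, or 251 within dark-cutting steers. SEs are the log2 fold change over the root of F. Log2 CPM has a prior count of 2, and the ratio a pseudocount of 1. Permutation tests used 100000 resamples. DESeq2 1.42.0, limma 3.58.1 (voom), other scalings, no filter, the number range as a covariate and leaving out steers were tried. The code was tested on simulated data. No batch is labelled, and replicate numbers pair no steers.

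The miRNAs, lists and tests were chosen with earlier results of these data known. Named miRNAs are the members, 6 other muscle miRNAs, and for miR-208b and miR-499 the 6 of highest and 3 of lowest r. The contrast of number ranges within a phenotype was added after values were seen.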

Additional observations from a re-analysis of the deposited data

How the results depend on the processing

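No tested difference of miR-208b or miR-499 passed after adjustment in any setting tried, so the alternatives bear on size and sign only. For dark-cutting minus normal, miR-208b lay between -0.34 and -0.27 over 7 alternatives and between -0.43 and -0.28 with each steer left out, and miR-499 between -0.12 and -0.02, and -0.14 and -0.08. The slope of miR-208b over all steers lay between -0.93 and -0.71 over 7 alternatives (adjusted p from 0.287 to 0.421), and between -0.997 and -0.769 with single steers of degrees 1/2, 2/3 and 3/4 left out (adjusted p from 0.261 to 0.461). The slope of miR-208b within dark-cutting steers lay between -1.21 and -0.59 over 7 alternatives. With no low-count filter 2 of 741 miRNAs passed for dark-cutting minus normal, against 0 of 252, and 3 passed for the slope over all steers with that setting, total count, DESeq2 size factors or DESeq2, against 1 of 272 and none with limma-voom. Neither member was among them. Some signs turned. For miR-499 at degree 1/4 minus normal these were 0.0034 with DESeq2 size factors and with DESeq2, 0.0167 with total count only and 0.0133 with no low-count filter, with -0.0043 to 0.0026 over single steers of degrees 1/2 and 2/3 left out. For miR-499 with total count only, 1/3 minus normal was 0.0426 and 1/3 minus 1/4 was 0.0259, and with no low-count filter 2/3 minus 1/3 was 0.0237. With these steers left out, miR-499 ran from -0.69 to 0.0305 for 1/2 minus 1/3, from -0.10 to 0.10 for 2/3 minus 1/3 and from -0.0933 to 0.63 for 2/3 minus 1/2. The ratio of miR-208b to miR-499 was -0.20 over all and 0.0777 within title numbers below 600. At 2 or more counts, the share of steers with miR-208a, dark-cutting minus normal, was -8.15 percentage points (Fisher's exact test p = 0.619), against 4.53 at 1 or more. Of the relations with other miRNAs, total count scaling reversed those of miR-499 with miR-1 (-0.41, against 0.33), the share of miR-1 (-0.41, against 0.20), miR-133b (0.17) and miR-378 (0.0803), and those of miR-208a with miR-1 (-0.0798), its share (-0.0792) and miR-206 (-0.00021). With total count scaling a negative r with miR-1 or its share is in part built in, because miR-1 holds most of the counts. How far this accounts for those reversals was not tested, nor were the causes of the other changes. No paired analysis was possible because the labels give no replicate numbers that steers of different groups share.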
